A study of Mus musculus with 8 samples.

Results

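Blastocysts homozygous for the G77S form of Isca2 were compared with wild-type blastocysts across the whole transcriptome, using every gene in the deposited gene tables and 6 of the 8 libraries of the series. The embryos were mouse blastocysts at embryonic day 4.5. The WT group (n = 3) was labelled wild type, and the G77S group (n = 3) was labelled Isca2 G77S/G77S, with the substitution on both alleles. A further group of 2 libraries, labelled Isca2 -/- (KO), entered the model that estimates the spread and gives levels for reference. After culture of the embryos in KSOM medium, their mRNA was amplified over its full length by a kit made for single cells, and a transposase prepared the libraries. All groups share superovulation with PMSG and hCG, per the labels. The labels describe matings of heterozygous Isca2+/- mice but leave unstated the parents of the G77S embryos, the number and sex of the embryos in a library, and any batch. No label ties a group's libraries to different litters. The p-values therefore rest only on how far these libraries differ from each other, part of which may be technical.

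ISCA2 is a mitochondrial protein of the A-type carrier family. With ISCA1 and IBA57 it acts in the late step of iron-sulfur cluster assembly, which supplies cubane clusters to enzymes such as aconitase, lipoyl synthase and subunits of respiratory complex I. The blastocyst at this stage holds a trophectoderm epithelium that pumps fluid into the cavity and starts implantation, an epiblast that gives rise to the embryo proper, and a primitive endoderm that forms the yolk sac lining.

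The substituted codon is shown in its reference context because every library of the G77S group is labelled by it. In the GENCODE transcript Isca2-201 (GRCm38, plus strand) codon 77 of 154 is a glycine codon at chr12:84773847-84773849, in exon 3 of 4. The stretch below covers chr12:84773817-84773879, with the glycine codon in capitals and 30 coding bases on each side. It is the reference sequence, and the base change that makes the serine was not read from these files.
Isca2 coding sequence around codon 77: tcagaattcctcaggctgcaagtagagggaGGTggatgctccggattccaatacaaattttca

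Libraries of the 2 groups differed in a technical measure. Fragment length was taken as the median, over long genes, of gene length minus effective length in the tables. It was 181.4, 181.9 and 185.1 bases in G77S replicates 1, 2 and 3, and 275.5, 248.1 and 242.7 bases in WT replicates 1, 2 and 3. The ranges do not overlap, so a difference in library preparation and the genotype cannot be told apart for any result below. Total expected counts were 10323965 to 13490295 in G77S and 10790670 to 23842619 in WT, and 15961 to 17560 genes in G77S and 14118 to 15758 in WT had at least 1 count. The 10 most abundant genes took 7.03% to 8.24% of the counts in G77S and 10.2% to 10.9% in WT. Replicate 1 of each group lacked Y-linked RNA: its Y-linked genes summed to 0.335 CPM in WT and 0.07 CPM in G77S, against 215 CPM or more in the other libraries. CPM here are expected counts relative to library size, scaled by TMM (a trimmed mean across libraries).

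Of 13953 genes tested with edgeR's quasi-likelihood test, 473 (3.39%) passed a Benjamini-Hochberg adjusted p of 0.05. They divided into 182 genes higher (1.3%) and 291 genes lower (2.09%) in G77S than in WT. At an unadjusted p under 0.05 there were 1433 higher and 1364 lower genes. The G77S libraries all lay above the WT libraries for 2405 genes (17.2%) and all below them for 1648 (11.8%). The median log2 fold change of all tested genes was 0.03. The median level, taken in the group where the gene was higher, was 59.7 CPM for genes that rose and 125 CPM for genes that fell. The list of higher genes included 20 with no count in WT, and the list of lower genes included 5 with no count in G77S. Leaving out 1 library moved these counts, most of them by more than 1.5 times. Without WT replicates 1, 2 and 3 they were 263 and 375, 74 and 148, and 88 and 148 (higher and lower), and without G77S replicates 1, 2 and 3 they were 31 and 97, 35 and 51, and 73 and 110. On log2(TPM + 1) values with limma-trend 1178 genes were higher and 288 lower, so that 80.4% of calls were higher against 38.5% on counts. With a length offset, 254 were higher and 314 lower. That offset was each library's trend of level over gene length, with gene lengths averaged across libraries. In a fit of the WT and G77S libraries alone 326 were higher and 340 lower, or 48.9% higher. The median of all genes was 0.23 on log2(TPM + 1) values, 0.13 with a replicate block and 0.12 with the length offset or without a filter, and list medians under those settings are read relative to it.

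**Figure D1:**
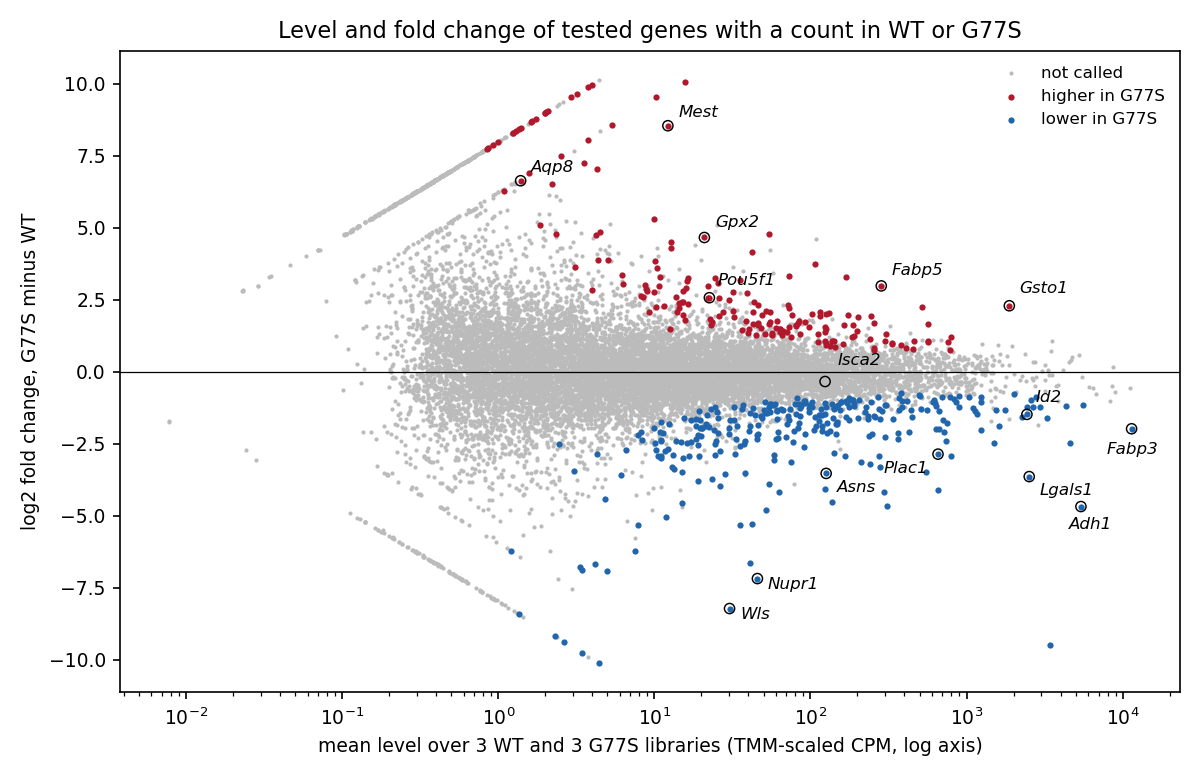
Each point is a tested gene with a count in WT or G77S, with its mean level over the 6 libraries (TMM-scaled CPM, log axis) against its log2 fold change, G77S minus WT. The 182 genes called higher are red and the 291 called lower are blue. The lower calls include abundant genes such as Adh1 and Fabp3, and for genes with no count in one group the fitted fold change depends on the prior count.

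Isca2 itself was present in all G77S libraries, at 89.1, 105 and 133 CPM, against 86.9, 173 and 154 CPM in WT. The groups overlapped, and the difference of -0.34 (SE 0.29) did not pass (adjusted p = 0.577). In the KO libraries it stood at 4.84 and 6.2 CPM, so the G77S libraries held 4.3 log2 units more Isca2 RNA than the KO libraries (adjusted p = 0.00099). The substitution lies inside the transcript, so the level of Isca2 does not check the G77S label.

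Among abundant genes, Adh1 fell steeply. It encodes a class I alcohol dehydrogenase that oxidises ethanol and retinol. Adh1 stood at 13087, 9201 and 8902 CPM in the WT libraries and at 333, 461 and 425 CPM in the G77S libraries. Every G77S library lay far below every WT library, and Adh1 fell by 4.68 on the log2 scale (SE 0.24, adjusted p = 1.17e-05). Other genes of the retinoid and alcohol dehydrogenase list did not follow as a group: of 16 tested members only Adh1 fell and only Dhrs7, a short-chain dehydrogenase, rose. Dhrs7 had no count in WT and stood at 8.54, 4.01 and 5.12 CPM in G77S, which makes it at least 97.9-fold higher against 3 counts over the WT group. In the KO libraries Adh1 stood at 14948 and 16123 CPM, above every WT library.

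Fatty acid binding proteins moved in opposite directions. Fabp3, which carries fatty acids in the cytosol of muscle and trophectoderm, stood at 17156, 20519 and 16936 CPM in WT and at 6206, 3396 and 4216 CPM in G77S. The groups did not overlap, and Fabp3 fell by 1.98 (SE 0.23, adjusted p = 0.00332). Fabp5, the epidermal-type family member, stood at 53.4, 69.9 and 68.3 CPM in WT and at 717, 394 and 401 CPM in G77S, a rise of 2.98 (SE 0.28, adjusted p = 0.00138). Among the 22 tested genes of fatty acid uptake and oxidation, 2 rose (1.3% of all genes did), 1 fell (2.09%), and the median was -0.2. The other member that rose was Acadvl, the very-long-chain acyl-CoA dehydrogenase (1.92, adjusted p = 0.0164), whose call was lost without WT replicate 2 or any 1 G77S library (adjusted p between 0.0562 and 0.0857).

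**Figure D2:**
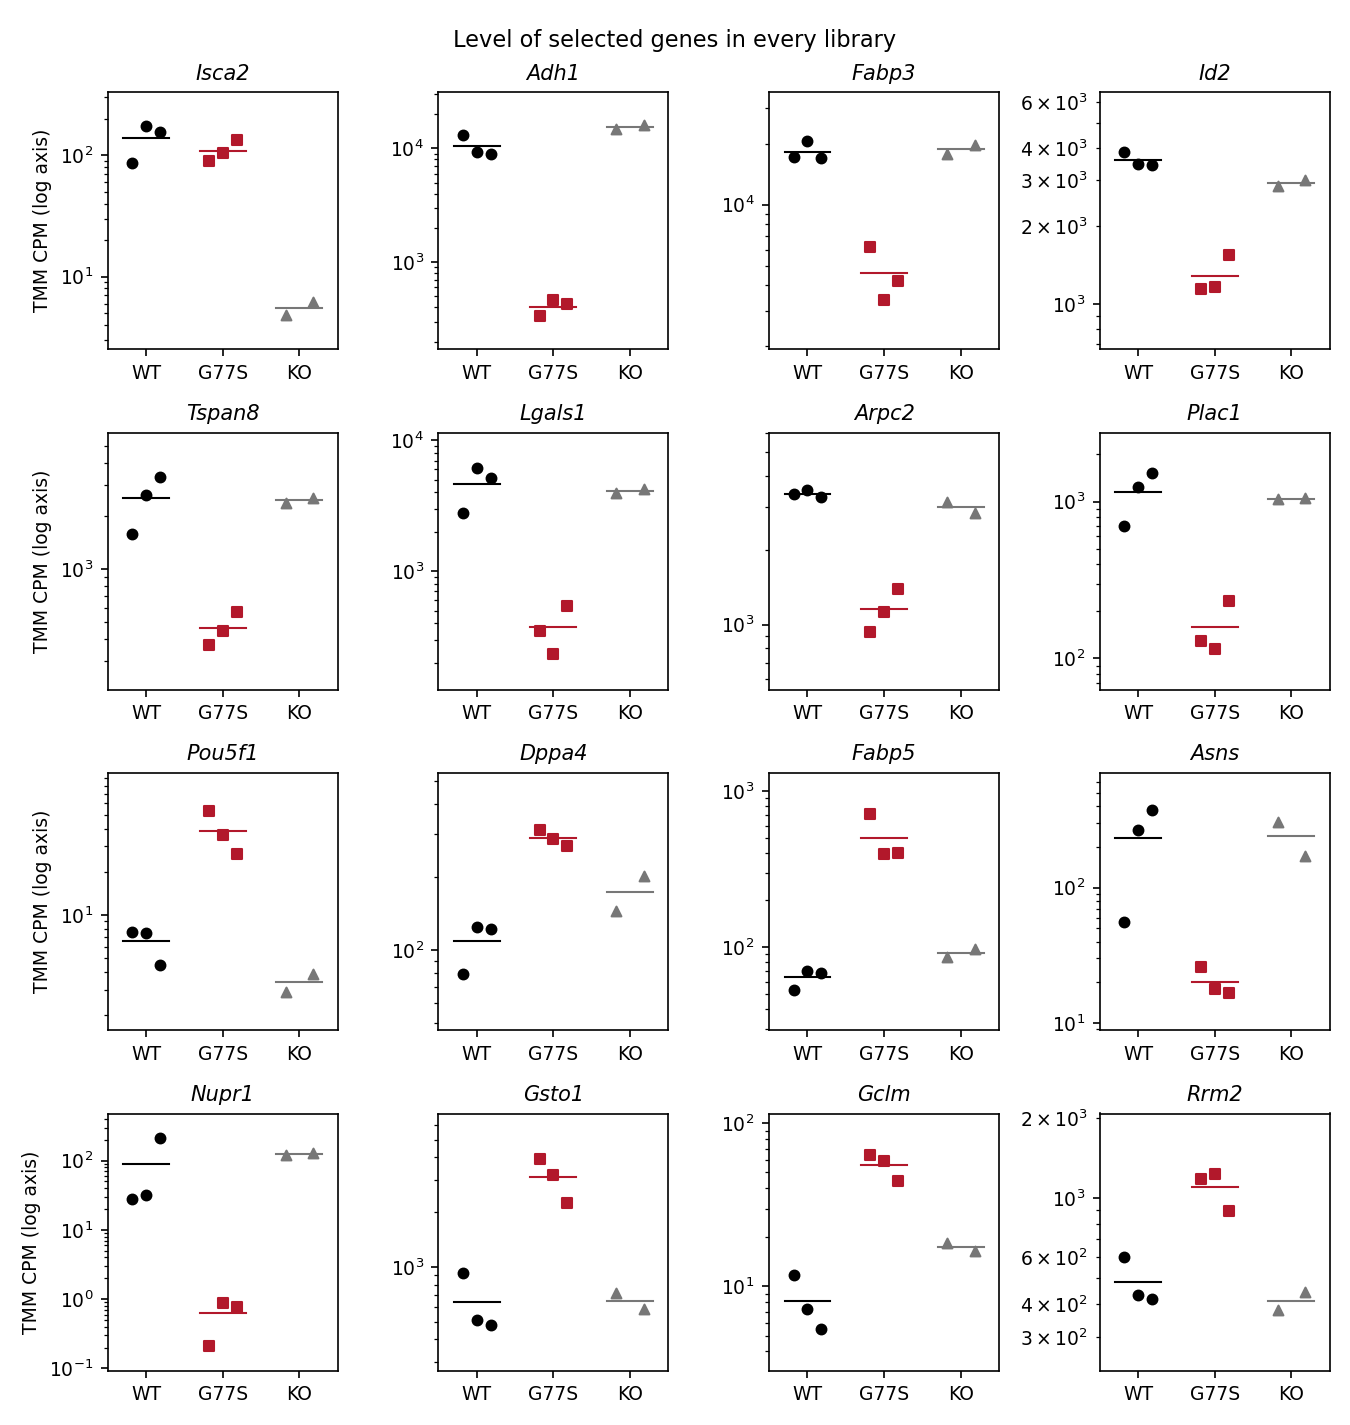
Level in every library (TMM-scaled CPM, log axis) of 16 genes described in the text, with WT as circles, G77S as squares and KO as triangles, and a bar at each group's mean. Isca2 overlaps between WT and G77S and is low in KO, while in the other panels the 3 G77S libraries lie wholly above or wholly below the 3 WT libraries.

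Trophectoderm genes were lower in G77S where they encode the epithelium and its surface. All 4 called genes among 30 tested members of the list of trophectoderm epithelium and surface genes fell, none rose, and 24 of the 30 values were negative. The list's median was -0.66, against 0.03 over all genes. Of the 30 members 12 lay wholly below WT, against 11.8% of all genes, of which 2.09% were called lower. Summed over the list, WT held 33829, 34264 and 32127 CPM and G77S held 15191, 10667 and 12530 CPM. The difference rests in large part on Fabp3, which is a member. In bulk libraries such as these, fewer cells of a type and less RNA per cell cannot be told apart.

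Tspan8, a membrane tetraspanin of epithelia, stood at 1591, 2633 and 3354 CPM in WT and at 367, 444 and 566 CPM in G77S, with no overlap (a fall of 2.46, SE 0.28, adjusted p = 0.00332). Krt18, the simple-epithelium keratin that pairs with Krt8, stood at 7666, 4839 and 5660 CPM in WT and at 2691, 2425 and 2808 CPM in G77S (-1.2, SE 0.23, adjusted p = 0.0222). Krt7, another keratin of simple epithelia and trophoblast, stood at 72.8, 93.9 and 61 CPM in WT and at 18.1, 11.4 and 21.4 CPM in G77S (-2.16, SE 0.41, adjusted p = 0.0196). These 3 surface and cytoskeletal genes were each lower in every G77S library. Krt8, Cdh1 and Epcam, chosen after their values were seen, gave -0.71, -0.48 and -0.03 and did not pass. The calls of the keratins depended on single libraries: Krt18 was lost without WT replicate 3 or any G77S library (adjusted p between 0.0518 and 0.126), and Krt7 without WT replicate 2 or any G77S library (between 0.0577 and 0.104). Without both replicate 1 libraries they had adjusted p = 0.0911 and 0.0787. The list held 2 called genes without any 1 G77S library, 3 without WT replicate 3 and 6 without WT replicate 1.

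Regulators of trophectoderm did not move as a block. Of 18 tested, 3 fell, 1 rose, and the median was -0.16, which became 0.13 on log2(TPM + 1) values and 0.09 without WT replicate 1. Over all genes 2.09% fell and 1.3% rose. Id2, an inhibitor of basic helix-loop-helix factors that is high in trophectoderm, stood at 3865, 3476 and 3423 CPM in WT and at 1137, 1165 and 1544 CPM in G77S. All G77S libraries were below all WT libraries, and Id2 fell by 1.48 (SE 0.18, adjusted p = 0.00337). Gata2 stood at 40.7, 27.7 and 28.2 CPM in WT and at 6.44, 1.63 and 8.42 CPM in G77S (-2.55, SE 0.61, adjusted p = 0.0484). Elf5, an ETS factor of trophoblast stem cells, stood at 10.4, 9.53 and 7.83 CPM in WT and at 0.07, 0.272 and 0.954 CPM in G77S (-4.43, SE 1.04, adjusted p = 0.0475). Msx2, a homeobox gene, went the other way, from 5.86, 3.47 and 5.05 CPM in WT to 30.5, 27.4 and 19.2 CPM in G77S (2.42, SE 0.55, adjusted p = 0.0419). The calls of Gata2, Elf5 and Msx2 were each lost without any 1 of the 6 libraries (adjusted p between 0.0514 and 0.19), which left Id2 as the only regulator called in each case.

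Of the factors that specify trophectoderm, none of the following was called. Cdx2 stood at 13.8, 4.96 and 5.65 CPM in WT and at 13.7, 13 and 6.16 CPM in G77S (0.43, SE 0.56, adjusted p = 0.736). Gata3 stood at 155, 122 and 76.1 CPM in WT and at 113, 119 and 112 CPM in G77S (-0.04, SE 0.28, adjusted p = 0.963). Both pairs of ranges overlapped, and an absent call does not show equal levels. Eomes, Tead4 and Tfap2c gave -0.87, 1.05 and -0.23, and none passed.

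Among genes of trophoblast and placenta, 2 of 11 tested fell and none rose, while 2.09% of all genes fell. Plac1, an X-linked gene needed for placental growth, stood at 700, 1242 and 1515 CPM in WT and at 130, 115 and 232 CPM in G77S. The groups were well apart, and Plac1 fell by 2.86 (SE 0.34, adjusted p = 0.00337). Slc38a4, an imprinted amino acid transporter of placenta, stood at 510, 554 and 568 CPM in WT and at 176, 254 and 259 CPM in G77S (-1.24, SE 0.26, adjusted p = 0.0301). Its call was lost without each library except WT replicate 1 (adjusted p between 0.0778 and 0.123). The list's median was -0.12 and ran from -1.01 to 0.45 when single libraries were left out.

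Some pluripotency genes of the epiblast were higher in G77S. Of 28 tested members of the epiblast and naive pluripotency list, 4 rose and none fell, 21 values were positive, and 13 members lay wholly above and 2 wholly below WT. Among all genes 1.3% were called higher, 17.2% lay wholly above and 11.8% wholly below. The median was 1.63, or 1.35 with the 3 members that had no count in WT set to their lower bound, against 0.03 over all genes. Scarce members enter the test only through the libraries where they are present, so this median supports no direction: tested genes below 1.41 CPM in general had a median of 0.56. The median of the list was 0.96 with a filter of 5 CPM in 2 libraries, 1.01 with only the groups compared and 0.57 without both replicate 1 libraries. The rise did not show in the summed level of the list, which was 13451, 19028 and 18905 CPM in WT and 15491, 11987 and 16126 CPM in G77S. That sum is carried by Dppa5a and Dppa3, which gave -1 and 0.59 and did not pass (both chosen after their values were seen).

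Pou5f1, the gene of the pluripotency factor OCT4, stood at 7.58, 7.45 and 4.49 CPM in WT and at 52.9, 36 and 26.7 CPM in G77S. Each G77S library held several times more than any WT library, and Pou5f1 rose by 2.57 (SE 0.41, adjusted p = 0.0104). Utf1, a chromatin protein of embryonic stem cells, stood at 5.91, 2.28 and 3.43 CPM in WT and at 27.4, 22.5 and 20.9 CPM in G77S (2.59, SE 0.43, adjusted p = 0.0118). Dppa2 stood at 318, 371 and 412 CPM in WT and at 808, 721 and 789 CPM in G77S (1.07, SE 0.18, adjusted p = 0.012). Its partner Dppa4, which acts with it on chromatin of early embryonic genes, stood at 79.7, 124 and 122 CPM in WT and at 314, 287 and 269 CPM in G77S (2.67-fold, adjusted p = 0.0123). All 4 genes were separated between the groups. All 4 calls were lost without G77S replicate 1 or without G77S replicate 2 (adjusted p between 0.0512 and 0.0634), and that of Pou5f1 also when both replicate 1 libraries, which lack Y-linked RNA, were omitted. The count of called members rose to 8 without WT replicate 3, and the list's median was 0.84 without G77S replicate 1.

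Other core factors of the epiblast were not called, in either direction. Nanog stood at 297, 266 and 221 CPM in WT and at 115, 66.9 and 176 CPM in G77S, lower in every G77S library without passing (-1.13, SE 0.36, adjusted p = 0.107). Sox2 and Esrrb had no count in WT and reached at most 0.91 and 0.694 CPM in a G77S library. Against 3 counts over the WT group they were at least 6.94-fold and 6.12-fold higher, and neither passed (adjusted p = 0.157 and 0.227). Klf4, also scarce, lay wholly above WT (1.9, adjusted p = 0.389), and Klf2 overlapped (0.36, adjusted p = 0.796). The WT libraries thus held no counts of Sox2 and Esrrb, nor of the primitive endoderm genes Sox17 and Gata4, while Nanog and Klf2 were detected in each. Gata4 had no count in G77S either. Cldn6, a tight-junction claudin, was the 1 gene called among 6 tested members of the formative and primed epiblast list. Bulk libraries do not show which cells held its RNA, so its rise is not read as one of the epiblast. Cldn6 stood at 21.5, 20.3 and 35.7 CPM in WT and at 144, 148 and 70.3 CPM in G77S (2.22, SE 0.36, adjusted p = 0.0106), and the call was lost without G77S replicate 1 or 2 (adjusted p = 0.0609 at most) or without both replicate 1 libraries (0.0617).

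Primitive endoderm genes were called in 2 of 20 tested members, both higher, against 1.3% of all genes called higher. Aqp8, a water and peroxide channel, had 1 count in WT and stood at 5.04, 2.45 and 0.781 CPM in G77S, a ratio of 143 (95% counting interval 25.2 to 5704, adjusted p = 0.00903). Col4a1, a basement membrane collagen, stood at 0.279, 0 and 0 CPM in WT and at 5.88, 3.54 and 1.47 CPM in G77S (5.09, SE 1.2, adjusted p = 0.0478). Both genes were scarce in all 6 libraries. The call of Col4a1 was lost without each library except WT replicate 1 (adjusted p between 0.0755 and 0.154), and that of Aqp8 on log2(TPM + 1) values (adjusted p = 0.0546). The list's median of 1.4 rests on members with few or no counts in WT, such as Sox17 and Pdgfra, and supports no direction. It was 0.66 with a filter of 5 CPM in 2 libraries and 0.43 without G77S replicate 1. Its abundant members Dab2 and Apoe, chosen after their values were seen, gave -0.54 and -0.95 and did not pass, and the summed level was 1364 to 1848 CPM in WT and 1048 to 1499 CPM in G77S. Gata6, which specifies the lineage, stood at 23.5, 17.8 and 18.7 CPM in WT and at 26.2, 28.2 and 26 CPM in G77S (0.42, adjusted p = 0.472).

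**Figure D3:**
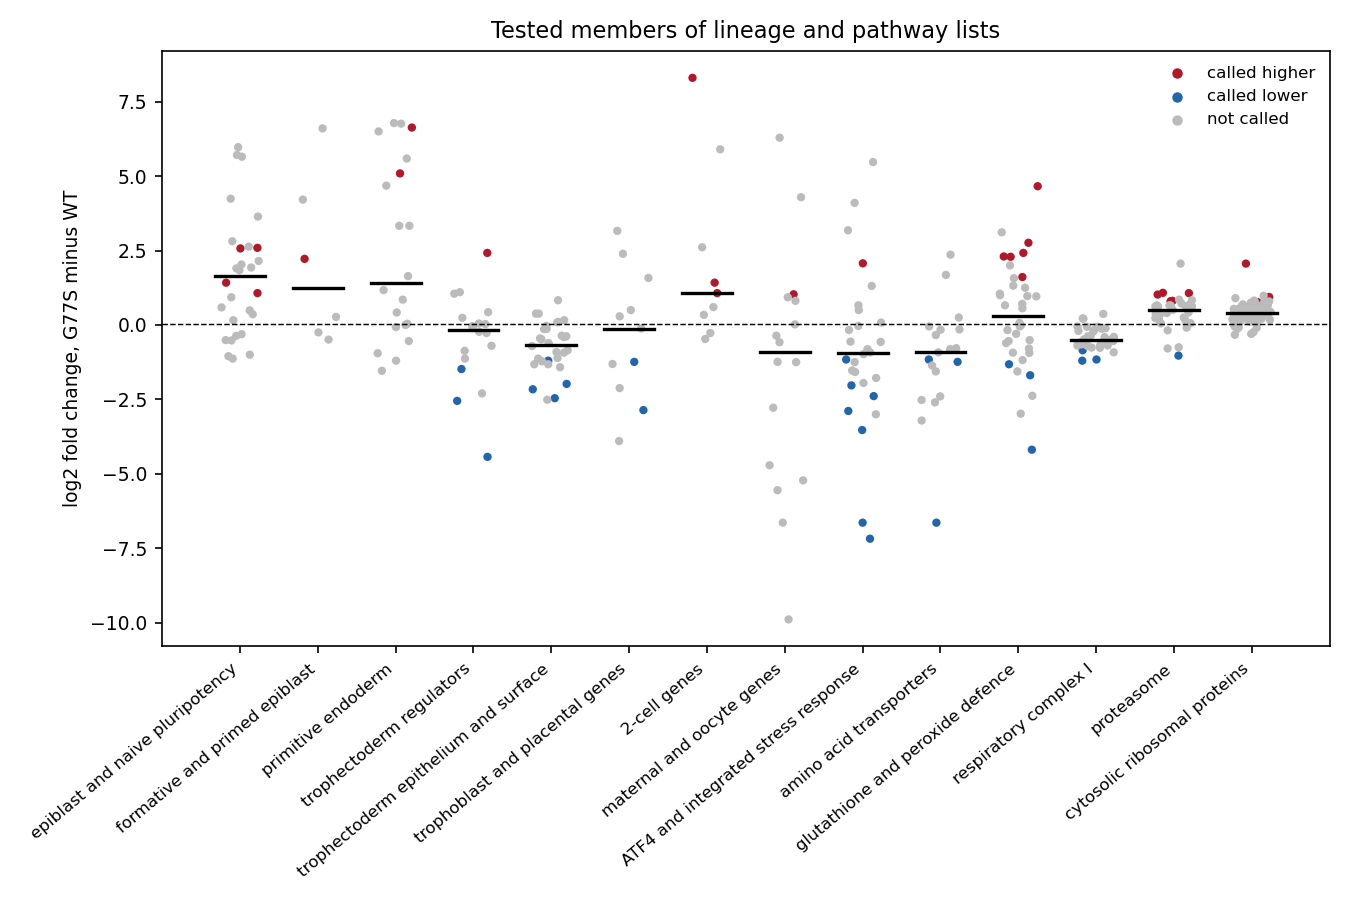
Log2 fold change (G77S minus WT) of every tested member of 14 lists, with called genes in red (higher) or blue (lower), a bar at each list's median and a dashed line at the median of all genes (0.03). Epiblast and primitive endoderm lists spread widely, trophectoderm epithelium and the ATF4 list lie mostly below it, and extreme values belong to genes with few or no counts in one group.

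Of the 2-cell genes 9 of 20 were abundant enough to test, and of the maternal genes 16 of 28. Among 9 tested 2-cell genes 3 rose, against 1.3% of all genes. Of these 3, Dppa2 and Dppa4 are also epiblast members. The remaining one, Zscan5b, had no count in WT and stood at 2.45, 3.2 and 1.82 CPM in G77S, at least 42-fold higher (adjusted p = 0.0301). The median of the 2-cell list was 1.07, but 2 of the 9 had no count in WT. Scarce members enter the test only through the libraries where they are present, so this median supports no direction. The Zscan4 genes of the list were too scarce to be tested. Of the 16 tested maternal genes 10 values were negative and 6 positive, 1 member had no count in WT and 4 had none in G77S. The median of the maternal list was -0.91 and ran from -1.41 to 0.23 when single libraries were left out. Khdc3, part of the subcortical maternal complex, was the 1 called gene of these 16, against the direction of most. It stood at 457, 528 and 520 CPM in WT and at 1181, 914 and 971 CPM in G77S (1.03, SE 0.18, adjusted p = 0.0144). Each of these rises separated the groups. Khdc3 lost its call without any G77S library (adjusted p between 0.0514 and 0.0702) or without both replicate 1 libraries (0.0583), Zscan5b without each library except WT replicate 1 (between 0.0666 and 0.111), and no 2-cell gene was called without G77S replicate 1 or 2. Pramel4, of the PRAME-like family expressed in early embryos, was separated in the same direction, with 222, 302 and 293 CPM in WT and 998, 710 and 865 CPM in G77S (1.65, SE 0.22, adjusted p = 0.00466).

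Markers of maternal cells that could be carried over with the embryos were scarce for the cumulus and stromal lists and more abundant for the oviduct and blood lists. Cumulus and granulosa genes summed to 2.08 to 6.45 CPM in WT and 0.347 to 3.36 CPM in G77S (0 of 3 tested genes called). Stromal genes summed to 1.11 CPM or less in every library, with none abundant enough to test. Oviduct and uterine genes summed to 122 to 131 CPM in WT and 81.3 to 120 CPM in G77S, nearly all of it Wfdc2. Blood cell genes summed to 24.8 to 75 CPM in WT and 13.3 to 20.8 CPM in G77S, mostly Cd68, which gave -1.72 (adjusted p = 0.0598). None of the 9 tested members of these 4 lists was called. The part of such cells in the results was not tested.

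Targets of ATF4, the transcription factor of the integrated stress response that drives amino acid synthesis and uptake, were mostly lower in G77S. Of 28 tested members 7 fell, 1 rose, 20 values were negative and 8 lay wholly below WT. Over all genes 2.09% fell, 1.3% rose and 11.8% lay wholly below WT. The median was -0.95 and remained negative when any 1 library was left out (-1.21 to -0.64). The summed level was 1094, 1517 and 2000 CPM in WT and 815, 886 and 556 CPM in G77S. WT replicate 1 had the lowest sum of the WT group and its lowest level of Asns, Ddit3 and Mthfd2.

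Asns, which makes asparagine, stood at 55.3, 266 and 374 CPM in WT and at 25.8, 18 and 16.6 CPM in G77S. The lowest WT library was above the highest G77S library, and Asns fell by 3.53 (SE 0.59, adjusted p = 0.0118). Nupr1, a small stress-induced nuclear protein, stood at 27.9, 32.4 and 212 CPM in WT and at 0.21, 0.884 and 0.781 CPM in G77S (-7.18, SE 0.93, adjusted p = 0.00431). Slc7a3, a cationic amino acid transporter, stood at 149, 19.5 and 75.4 CPM in WT and at 1.26, 0 and 1.21 CPM in G77S (-6.64, SE 1.02, adjusted p = 0.00868). Both genes were near the limit of detection in G77S and varied widely among the WT libraries. Ddit3, the gene of the stress factor CHOP, stood at 89.7, 187 and 230 CPM in WT and at 27.5, 54.7 and 42 CPM in G77S (-2.03, SE 0.37, adjusted p = 0.0173). Mthfd2, a mitochondrial folate enzyme, stood at 40.4, 114 and 156 CPM in WT and at 10.2, 19.8 and 11.8 CPM in G77S (-2.89, SE 0.53, adjusted p = 0.0175). Aldh18a1, which starts proline synthesis (chosen after its values were seen), and Slc3a2, the heavy chain of amino acid exchangers, also fell, by 2.39 and 1.16 (adjusted p = 0.012 and 0.0439). These genes were thus lower together while Atf4 itself (chosen after its values were seen) was not called, standing at 35.5, 95.4 and 120 CPM in WT and at 35.8, 48.6 and 43.1 CPM in G77S (-0.98, adjusted p = 0.196).

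The list held one gene that went up. Cth, cystathionine gamma-lyase of the transsulfuration pathway, stood at 10.5, 28.1 and 24.7 CPM in WT and at 123, 79.3 and 64.1 CPM in G77S (2.07, SE 0.39, adjusted p = 0.0193). The number of members that fell was 8 without WT replicate 1, 4 without WT replicate 2 or 3, 3 without G77S replicate 1 or 3, and 2 without G77S replicate 2. Nupr1 and Slc7a3 kept their calls each time, and Slc3a2 lost its call each time (adjusted p between 0.0608 and 0.168). Asns lost it without G77S replicate 2 or 3 (0.0592 and 0.0709), Aldh18a1 without G77S replicate 1 or 2 (0.0819 at most), and Ddit3 and Mthfd2 without each library except WT replicate 1 (0.0539 to 0.0896). Cth lost its call without WT replicate 3 or G77S replicate 1 or 2 (0.0502 to 0.0837).

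The promoters of this list, of which 7 of 28 tested members fell, were searched for the C/EBP-ATF response element. ATF4 binds this composite site. The motif TGATGNAA was sought on both strands in RefSeq windows of GRCm38.p6 running from 250 bases before to 50 after each gene start. It was in 10 of the 29 matched list members (34.5%), against 4.51% of all 27025 genes in the table and 3.97% of its promoters. The list was put together from known ATF4 targets, so a high share there is no finding. Among members that fell, 2 of the 6 with a promoter entry held it (33.3%), and among tested members without a call 6 of 18 did (33.3%), so its presence did not separate them. Asns and Nupr1, the 2 that fell with a match, are shown up to 36 bases around the match (in capitals), read along the gene and ending at its start where that comes first. The match begins 23 bases before the start of Asns (chr6:7693210-7693268, minus strand) and 110 bases before that of Nupr1 (chr7:126625537-126625616, minus strand), where it reads as the reverse complement.
Asns promoter: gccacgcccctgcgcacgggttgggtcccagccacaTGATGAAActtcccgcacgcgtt
Nupr1 promoter: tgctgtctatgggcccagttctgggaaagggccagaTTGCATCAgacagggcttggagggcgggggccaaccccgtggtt

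Amino acid transporters and synthetases had negative medians with few calls. Of 19 tested amino acid transporters 3 fell and none rose (Slc7a3 and Slc3a2, both counted above among ATF4 targets, and Slc38a4), 16 values were negative, and the median was -0.92. Among 20 cytosolic aminoacyl-tRNA synthetases, which charge tRNAs, Iars and Lars fell and none rose, with a median of -0.28. Of these 20 genes 8 lay wholly below WT, against 11.8% of all genes, of which 2.09% fell. Iars, for isoleucine, stood at 109, 98.9 and 78.9 CPM in WT and at 26, 46.9 and 41.7 CPM in G77S (-1.32, adjusted p = 0.0373). Endoplasmic reticulum chaperones had a median of -0.52 over 21 tested, and the 1 that fell was Manf, a secreted protein induced by misfolded protein, from 383, 279 and 325 CPM to 125, 161 and 189 CPM (-1.05, adjusted p = 0.0301). The medians of these 3 lists were below that of all genes in each of the 15 alternative settings. Their calls were fragile: no synthetase was called without WT replicates 2 or 3 or any G77S library, the transporters were down to 1 call without any library but WT replicate 1, and Manf was lost without WT replicate 3 or any G77S library (adjusted p between 0.0577 and 0.126).

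Glutathione and peroxide defence genes changed in both directions. Of 36 tested members 6 rose and 3 fell, the median was 0.32, and 11 lay wholly above and 8 wholly below WT. For all genes the shares were 1.3% and 2.09% called, and 17.2% and 11.8% wholly above and below. Gsto1, an omega-class glutathione transferase that reduces oxidised thiols, stood at 928, 509 and 479 CPM in WT and at 3913, 3184 and 2257 CPM in G77S. The groups were well separated, and Gsto1 rose by 2.29 (SE 0.3, adjusted p = 0.00459). Gpx2, a glutathione peroxidase of epithelia, stood at 1.51, 1.19 and 1.99 CPM in WT and at 72.7, 31.4 and 16.6 CPM in G77S (4.66, SE 0.6, adjusted p = 0.00415). Gclm, the modifier subunit of the enzyme that starts glutathione synthesis (chosen after its values were seen), stood at 11.8, 7.25 and 5.51 CPM in WT and at 63.6, 59.2 and 44.2 CPM in G77S (2.76, SE 0.37, adjusted p = 0.00495). These 3 genes kept their calls in every alternative setting. Gsr, glutathione reductase, and Cat, the peroxisomal catalase, both chosen after their values were seen, rose by 2.3 and 2.42 (adjusted p = 0.00993 and 0.00903). Sod1, the cytosolic superoxide dismutase, rose by 1.61 (adjusted p = 0.0493).

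Other members of the same list fell. Gpx1, the main cytosolic glutathione peroxidase, stood at 2007, 2487 and 2141 CPM in WT and at 899, 697 and 1061 CPM in G77S (-1.32, SE 0.2, adjusted p = 0.00783). Gsta1, an alpha-class transferase whose reads can be shared with near-identical copies, stood at 205, 614 and 868 CPM in WT and at 27.6, 17.2 and 48.1 CPM in G77S (-4.19, SE 0.73, adjusted p = 0.0144). Gstm2, a mu-class transferase, fell by 1.69 (adjusted p = 0.0155). The list thus split by gene and not by enzyme class, with Gpx2 higher and Gpx1 lower. Nfe2l2, the gene of the regulator NRF2, gave -0.54 (adjusted p = 0.348), and its known targets Nqo1, Srxn1 and Txnrd1 gave 3.11, 1.25 and 0.66 without passing (all 4 chosen after their values were seen). Without G77S replicate 2 the list had 3 higher and 0 lower calls, and Gpx1, Gsr and Cat had adjusted p = 0.0544, 0.0534 and 0.0539. Gsta1 was lost without G77S replicate 1 or 2 (0.0795 at most), Gstm2 without WT replicate 2 or 3 or G77S replicate 1 or 2 (0.0518 to 0.0891), and Sod1 without each library except WT replicate 1 (0.0813 to 0.175).

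Few genes of the machinery in which ISCA2 acts were called. None of 20 tested genes of mitochondrial iron-sulfur assembly was called, against 3.39% of all genes. At that share a list of 20 can hold no call, so its absence does not show equal levels. The median was -0.14, and it was below that of all genes in each of the 15 alternative settings. Ndufab1, the mitochondrial acyl carrier protein and a member of that list, was lower in every G77S library, standing at 506, 743 and 790 CPM in WT and at 294, 324 and 459 CPM in G77S (-0.92, adjusted p = 0.061). Nfu1, a cluster carrier that acts after ISCA2, stood at 198, 300 and 276 CPM in WT and at 220, 210 and 222 CPM in G77S (-0.25, adjusted p = 0.552). Of 11 cytosolic assembly genes 1 fell: Ciao2a, which targets clusters to the iron regulatory protein, stood at 3005, 3530 and 3744 CPM in WT and at 1276, 1162 and 1983 CPM in G77S (-1.22, SE 0.22, adjusted p = 0.0165). Iron handling had 1 call in 18, the exporter Slc40a1 (ferroportin). It stood at 50.6, 92.3 and 157 CPM in WT and at 2.17, 3.6 and 4.95 CPM in G77S, with 38 and 2.65 CPM in the KO libraries (-4.81 against WT, SE 0.86, adjusted p = 0.0156). The transferrin receptor Tfrc and the iron regulatory genes Aco1 and Ireb2, chosen after their values were seen, gave -0.22, -0.26 and -0.83 and did not pass. The haem enzyme Alad rose by 1.08 (adjusted p = 0.0451), the 1 call among 8. Ciao2a lost its call without WT replicate 2 or 3 or G77S replicate 1 or 2 (adjusted p between 0.0547 and 0.0956), Slc40a1 without any G77S library (0.0579 to 0.0857), and Alad without any 1 library (0.0547 to 0.161).

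Nuclear genes of the respiratory chain had negative medians with few calls. All 36 genes of complex I, the NADH dehydrogenase, were tested: 3 fell (Ndufa10, Ndufs4 and Ndufa1), none rose, 33 values were negative, and the median was -0.52. Over all genes 2.09% fell and 1.3% rose. The summed level of complex I overlapped between the groups, at 10346, 16375 and 15407 CPM in WT and 10181, 8786 and 10680 CPM in G77S. The medians were -0.33 for succinate dehydrogenase and its assembly factors (8 genes, 1 lower), -0.33 for complex III (10 genes, none called), -0.45 for complex IV (15 genes, 1 higher and 1 lower) and -0.33 for ATP synthase (16 genes, none called). Sdhb, the iron-sulfur subunit of succinate dehydrogenase, stood at 570, 1164 and 937 CPM in WT and at 365, 367 and 435 CPM in G77S (-1.19, SE 0.25, adjusted p = 0.032). Ndufs4, an accessory subunit of complex I, stood at 288, 484 and 491 CPM in WT and at 170, 174 and 223 CPM in G77S (-1.16, SE 0.25, adjusted p = 0.0378). Cycs, cytochrome c, fell by 1.05 (adjusted p = 0.0454), and Cox6b2, a testis-type subunit of complex IV, rose by 1.29 (adjusted p = 0.0432). The calls of Sdhb, Ndufs4, Cycs and Cox6b2 were lost without each library except WT replicate 1 (adjusted p between 0.077 and 0.173). Cycs was also lost on log2(TPM + 1) values, with the length offset and without both replicate 1 libraries (0.0536 to 0.91). Its mean TPM hardly differed, at 481 in WT and 466 in G77S, so its fall depends on the measure. Cox6b2 was also lost with the replicate block, the length offset and without both replicate 1 libraries (0.0707 to 0.105). Complex I had 9 calls without WT replicate 1, 1 without G77S replicate 1 and 0 without each of the others.

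Messenger RNAs of the mitochondrial genome varied in direction. None of the 13 was called, 7 values were positive and 6 negative, and the median was 0.07. The 2 most abundant, mt-Cytb and mt-Co1, were lower in every G77S library without passing (-0.72 and -0.55, adjusted p = 0.076 and 0.161). The median turned to -0.26 without both replicate 1 libraries, to -0.09 without G77S replicate 1 and to -0.08 without WT replicate 1. The share of counts from the mitochondrial genome was 3.35%, 3.91% and 4.03% in WT and 4.25%, 3.38% and 3.38% in G77S, so the groups overlapped. In the tricarboxylic acid cycle 2 of 18 genes fell, Sdhb and Suclg1, and none rose (median -0.3), while 2.09% of all genes fell. Suclg1, a subunit of succinyl-CoA ligase, fell by 0.89 (adjusted p = 0.0438), a call lost without each library except WT replicate 1 (0.0952 to 0.2). Among 19 genes of lipoylation and lipoyl-dependent enzymes 1 rose, Gcsh, the H protein of glycine cleavage (0.76, adjusted p = 0.0447), and it was lost without any 1 library (0.0531 to 0.172). The mitochondrial ribosome gave 1 higher and 1 lower call in 78 genes with a median of 0.01. Mrpl41 stood at 226, 175 and 194 CPM in WT and at 77, 86 and 85.9 CPM in G77S (-1.26, SE 0.2, adjusted p = 0.00945), while Mrpl17 rose by 1.22 (adjusted p = 0.0151). Without G77S replicate 2 Mrpl41 had an adjusted p of 0.0595, and Mrpl17 was lost without G77S replicate 1 or 2 (0.0787 at most).

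DNA replication genes gave calls in 1 direction. Replication genes gave 2 calls in 33, both higher, with 28 positive values, 15 members wholly above WT, none wholly below, and a median of 0.6. The shares of all genes were 1.3% called higher and 17.2% wholly above WT. Rrm2, the small subunit of ribonucleotide reductase, stood at 603, 430 and 416 CPM in WT and at 1179, 1229 and 898 CPM in G77S (1.19, SE 0.22, adjusted p = 0.0164). Mcm7, of the replicative helicase, stood at 28.1, 16.4 and 18.4 CPM in WT and at 75.1, 54.7 and 48.9 CPM in G77S (1.5, SE 0.33, adjusted p = 0.0364). Every G77S library was above every WT library for both. Mitotic genes had 0 calls in 24 and a median of 0.25. Without G77S replicate 1 or 2 or WT replicate 2 or 3 no replication gene was called, with adjusted p of 0.0639 to 0.086 for Rrm2 and up to 0.154 for Mcm7, which was also lost without G77S replicate 3.

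In the proteasome and cytosolic ribosome most values were positive and few passed. As background, 1.3% of all genes were called higher and 17.2% lay wholly above WT. Of 37 tested proteasome genes 5 rose and 1 fell (Psmd10, chosen after its values were seen), 32 values were positive, 23 members lay wholly above WT, and the median was 0.49. Psmc1, a base ATPase subunit, stood at 395, 372 and 357 CPM in WT and at 791, 825 and 666 CPM in G77S (1.02, SE 0.18, adjusted p = 0.0144). Psmb4, of the core particle, stood at 238, 304 and 340 CPM in WT and at 759, 619 and 485 CPM in G77S (1.08, SE 0.22, adjusted p = 0.0298). Of 81 cytosolic ribosomal protein genes 3 rose (Rpl21, Rps15a and Rpl39l) and none fell, with 74 positive values, 47 members wholly above WT and a median of 0.41. Their summed level was 46177, 58828 and 52515 CPM in WT and 72185, 62048 and 61820 CPM in G77S. Rps15a, of the small subunit, stood at 214, 274 and 291 CPM in WT and at 527, 484 and 482 CPM in G77S (0.94, SE 0.2, adjusted p = 0.0345), and its reads can be shared with processed pseudogenes. Spliceosome genes had a median of 0.48 with 1 higher call in 28 (Snrpb), and ribosome biogenesis genes one of 0.43 with none in 31. Translation initiation factors were divided, with 2 higher (Eif2d and Eif1ax) and 2 lower (Eif4a2 and Eif4e2) in 54 and a median of 0.04, and of these no call was left without G77S replicate 1 or 2. The medians of the proteasome, ribosome, spliceosome and ribosome biogenesis lists exceeded that of all genes in each of the 15 alternative settings, but few calls held: the proteasome had 8 higher calls without WT replicate 1, 3 without G77S replicate 3 and 0 without any other library, and the ribosome had 3 without WT replicate 1 and 0 otherwise.

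Lengths of genes moved with these values. Split into 4 classes of equal size by length, from short to long, tested genes had median log2 fold changes of 0.17, 0.14, 0.06 and -0.21, with median lengths of 819, 1532, 2322 and 3757 bases. Ribosomal protein genes are short, and the part of length in their shift was not tested beyond a length offset. With the length offset the median of ribosomal protein genes was 0.43 and that of the proteasome 0.51, while that of all genes was 0.12.

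Lysosome and vacuolar ATPase genes were more often lower. Of 39 tested 5 fell and 1 rose, and 17 lay wholly below WT and 5 wholly above. In all genes 2.09% fell, 1.3% rose, 11.8% lay wholly below WT and 17.2% wholly above. The median of the lysosome list was -0.33 (0.06 on log2(TPM + 1) values, where the median of all genes was 0.23). Atp6v0e, a membrane subunit of the proton pump, stood at 937, 1453 and 1342 CPM in WT and at 560, 480 and 556 CPM in G77S (-1.23, SE 0.2, adjusted p = 0.0118). Lgmn, the asparaginyl protease legumain, stood at 244, 364 and 364 CPM in WT and at 87.8, 147 and 137 CPM in G77S (-1.39, SE 0.26, adjusted p = 0.0175). Both were lower in all G77S libraries. Ctsd, the aspartic protease cathepsin D (chosen after its values were seen), went the other way, from 38.7, 44.5 and 59.9 CPM in WT to 249, 171 and 126 CPM in G77S (1.93, SE 0.31, adjusted p = 0.00947). The number that fell was 7 without WT replicate 1, 1 without WT replicate 2 or 3, 2 without G77S replicate 1 and 0 without G77S replicate 2 or 3. Atp6v0e was lost without any G77S library (adjusted p between 0.0512 and 0.0847) and Lgmn without each library except WT replicate 1 (0.0575 to 0.0703).

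Genes of adhesion, signalling and secretion included some of the deepest losses. Lgals1, the secreted lectin galectin-1, stood at 2763, 6096 and 5135 CPM in WT and at 346, 234 and 539 CPM in G77S, with no overlap (a fall of 3.64, SE 0.37, adjusted p = 0.00192). Wls, which carries WNT proteins to the cell surface, stood at 12.8, 51.4 and 117 CPM in WT and at 0.35, 0.204 and 0 CPM in G77S (-8.22, SE 0.98, adjusted p = 0.00337). S100a1, a calcium-binding protein, stood at 85.5, 74.9 and 87.9 CPM in WT and at 3.85, 1.43 and 0.954 CPM in G77S (-5.3, SE 0.53, adjusted p = 0.00192). All 3 genes were called in every alternative setting. Ltc4s, leukotriene C4 synthase, stood at 32.4, 92.7 and 81.8 CPM in WT and at 1.05, 1.84 and 2.26 CPM in G77S (-5.33, SE 0.56, adjusted p = 0.00241). Slc39a2, a zinc importer, stood at 69.8, 313 and 413 CPM in WT and at 9.59, 5.78 and 19.3 CPM in G77S (-4.52, SE 0.66, adjusted p = 0.00721). Cd9, a tetraspanin, fell by 1.21 (adjusted p = 0.0216), the 1 call among 16 integrins and implantation ligands, and Spry2, a feedback inhibitor of FGF signalling, rose by 3.25 (adjusted p = 0.0372). The calls of Cd9 and Spry2 were lost without any G77S library, that of Cd9 also without WT replicate 2 or 3 and that of Spry2 without WT replicate 3 (adjusted p between 0.0694 and 0.134).

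Genes that rose included metabolic enzymes. Tat, tyrosine aminotransferase, had 1 count in WT and stood at 44, 18.6 and 30.7 CPM in G77S, a ratio of 1537 (95% counting interval 275 to 60765, adjusted p = 0.00722). Fbp2, a fructose bisphosphatase of gluconeogenesis, stood at 240, 122 and 187 CPM in WT and at 1013, 891 and 668 CPM in G77S (2.23, SE 0.35, adjusted p = 0.00903). Urah, which acts in the breakdown of urate, stood at 1.28, 0.993 and 1.39 CPM in WT and at 44.2, 16.3 and 12.2 CPM in G77S (4.29, SE 0.64, adjusted p = 0.00754). In all 3 the G77S libraries lay apart from WT. Mgarp, a mitochondrial protein first described in steroid-producing cells, stood at 5.8, 1.49 and 3.94 CPM in WT and at 174, 74.3 and 65.9 CPM in G77S (4.78, SE 0.64, adjusted p = 0.00487). P4ha1, a collagen prolyl hydroxylase, had 3 counts in WT and stood at 9.87, 11.4 and 4.42 CPM in G77S, a ratio of 146 (49.7 to 714). Fbp2 stood at 388 and 908 CPM and P4ha1 at 16.1 and 10.8 CPM in the KO libraries.

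The series title names TET enzymes, which oxidise 5-methylcytosine, and none of the 3 Tet genes was called. Tet1 stood at 7.14, 1.09 and 7.88 CPM in WT and at 18.2, 13.7 and 10.8 CPM in G77S (1.39, SE 0.64, adjusted p = 0.258). Tet2 stood at 35.7, 38.2 and 52.5 CPM in WT and at 43.6, 32.7 and 38.9 CPM in G77S (-0.14, SE 0.35, adjusted p = 0.881). Tet3 stood at 4.74, 0.695 and 2.55 CPM in WT and at 0.84, 0.204 and 0.174 CPM in G77S (-2.69, SE 1.14, adjusted p = 0.218). The Tet1 libraries did not overlap between groups and those of the other two did. The methyltransferase genes Dnmt1, Dnmt3a, Dnmt3b and the cofactor Dnmt3l gave -1.1, 0.27, -0.25 and 0.5, and none passed. Of 25 tested genes of DNA methylation and demethylation 1 was called: Gadd45a, which had no count in WT, stood at 3.5, 2.52 and 2.08 CPM in G77S and was at least 45.3-fold higher (adjusted p = 0.0419), a call lost without any 1 library (0.0506 to 0.145).

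Imprinted and germline genes gave 3 calls in 28 tested and 1 in 18 tested, against 3.39% of all genes. Of the imprinted genes Mest rose, Slc38a4 and Sfmbt2 fell, and the median was -0.05. Mest, a paternally expressed hydrolase gene, had 3 counts in WT and stood at 40.2, 20.5 and 12.1 CPM in G77S, a ratio of 415 (142 to 2015, adjusted p = 0.00368), with no count in either KO library. Sfmbt2, a paternally expressed Polycomb gene of trophoblast, stood at 24.5, 25.3 and 33.4 CPM in WT and at 9.1, 11.8 and 11.3 CPM in G77S (-1.37, SE 0.33, adjusted p = 0.0484). Among 18 germline genes that DNA methylation silences 1 rose, Tex19.1, which restrains transposons (1.75, adjusted p = 0.0484). Mest kept its call in every alternative setting, while those of Sfmbt2 and Tex19.1 were lost without each library except WT replicate 1 (adjusted p between 0.0698 and 0.178).

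**Figure D4:**
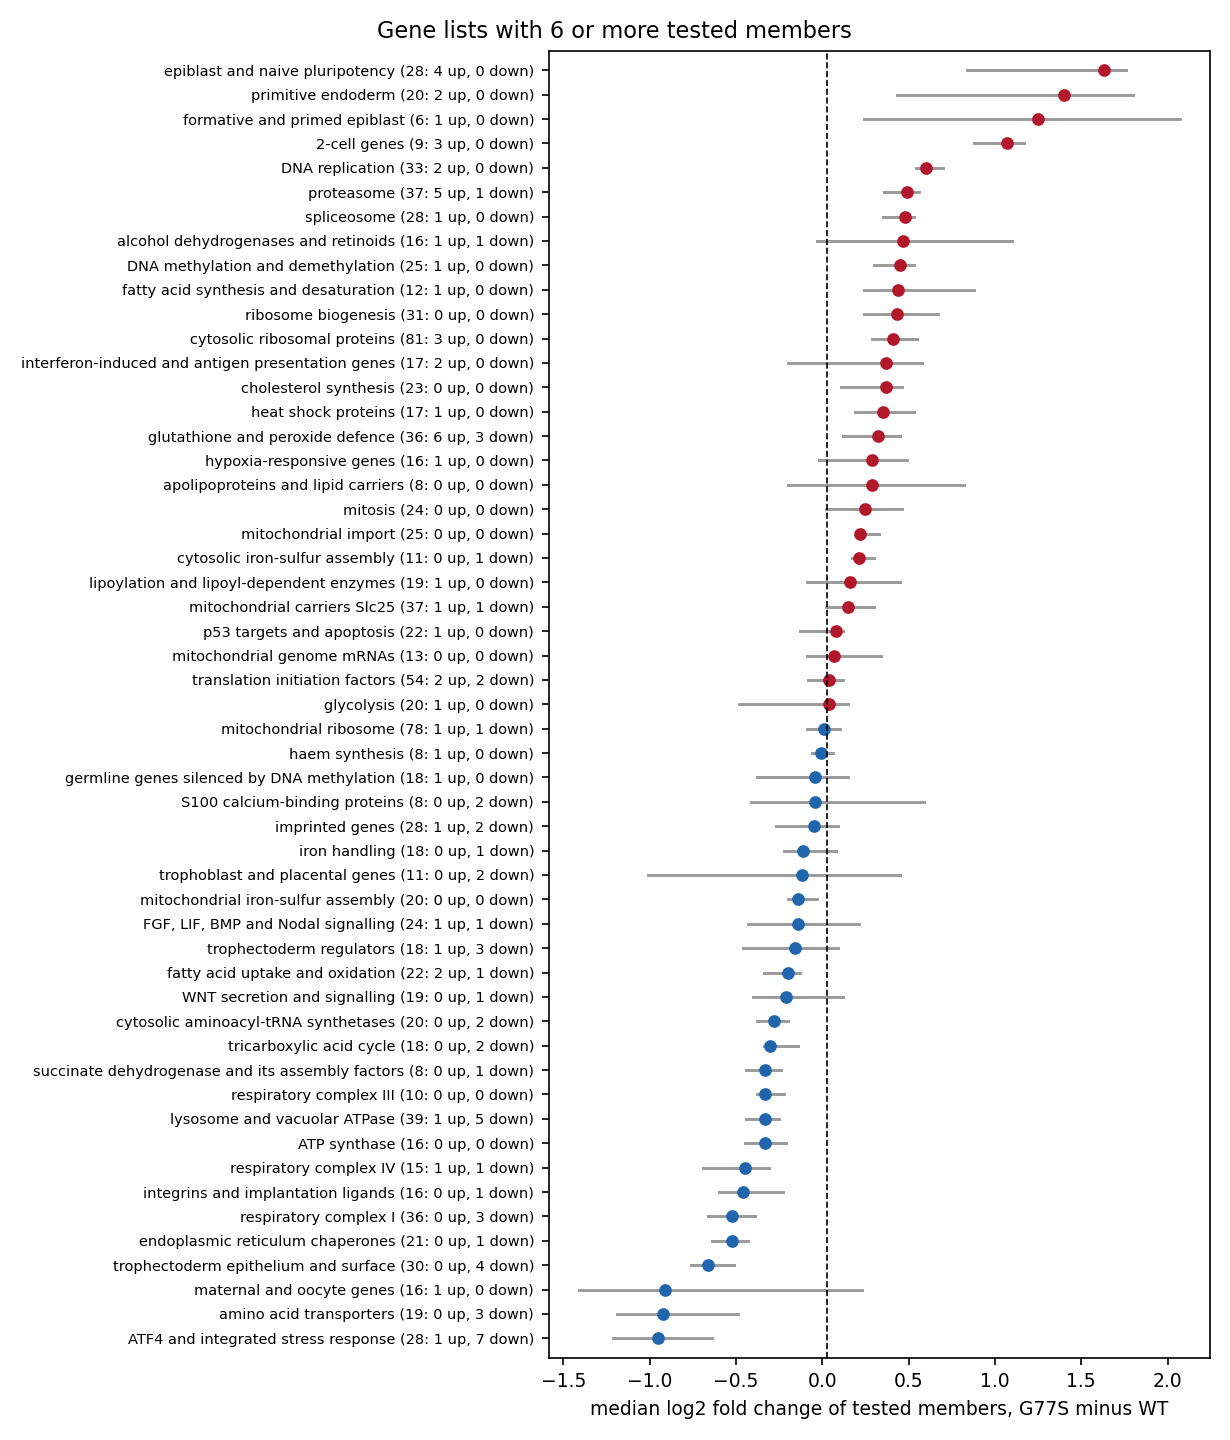
Median log2 fold change (G77S minus WT) of each list with 6 or more tested members, with the numbers tested, called higher (up) and called lower (down) in brackets, red above and blue below the dashed median of all genes (0.03). Grey lines span the medians obtained when single libraries were left out, and they are wide for the formative epiblast, maternal and placental lists and narrower for the ribosome, proteasome and respiratory complexes.

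Against the KO libraries, 246 genes (1.76%) were higher and 339 (2.43%) lower in G77S, 585 (4.19%) in all. This comparison uses the same G77S libraries as that with WT, so the values are set side by side only. The KO libraries, like those of WT, had longer fragments than G77S, 291.1 and 243.4 bases against 181.4 to 185.1 bases. Library preparation and genotype therefore cannot be told apart here either. Adh1 fell by 4.68 against WT and by 5.26 against KO (adjusted p = 6.22e-06), and Fabp3 fell by 1.98 and 2.02 (0.00311). Asns fell by 3.53 and 3.57 (0.0118). Lgals1 fell by 3.64 and 3.45 (0.00244). Fabp5 rose by 2.98 and 2.46 (0.00391), and Pou5f1 by 2.57 and 3.51 (0.00614). For these 6 genes the KO libraries stood on the WT side. Elsewhere the KO libraries stood nearer to G77S: Utf1 was at 30.2 and 48.2 CPM, Cth at 83.7 and 81.8 CPM and Spry2 at 38.3 and 54.6 CPM in KO, and the differences of G77S from KO were -0.73, 0.1 and -0.06 (adjusted p = 0.384, 0.924 and 0.976).

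Called genes were found on every autosome and on the X chromosome, which had the highest share of the chromosomes plotted. Of 486 tested X-linked genes 4 were higher and 26 lower (6.17% called, median -0.21). Chromosomes 16 and 19 followed with 5.63% and 5.12%, and the others ran from 2.46% to 4.38%. With both replicate 1 libraries omitted 2 X-linked genes were higher and 19 lower. The numbers of lower X-linked genes without single libraries ran from 7 without G77S replicate 2 to 26 without WT replicate 1, with 12 without WT replicate 2 or 3, 10 without G77S replicate 1 and 15 without G77S replicate 3. On log2(TPM + 1) values 25 were higher and 26 lower, and the median was 0.09. Around the edited gene, within 2 Mb of Isca2 on chromosome 12, 1 of 50 tested genes was higher and none lower.

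**Figure D5:**
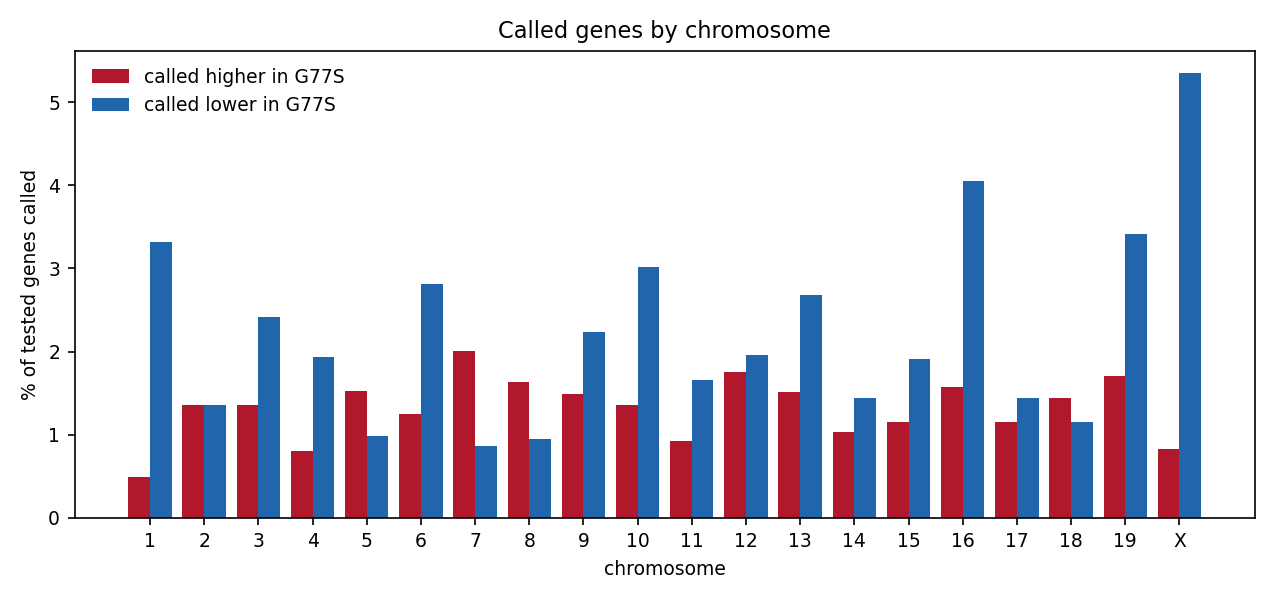
Share of tested genes on each chromosome called higher (red) or lower (blue) in G77S than in WT, as a percent on an axis that starts at 0. The X chromosome has the tallest lower bar (26 of 486 genes) and a higher bar of 4 of 486.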

How the data were processed

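Bulk RNA-seq tables, 1 per library, were used for 3 WT, 3 G77S and 2 KO libraries. The deposited tables hold RSEM expected counts, TPM, gene length and effective length, per the file headers. Expected counts are estimates made by the authors in which a read shared by several genes is split between them, so values of genes with near-identical copies are uncertain. TPM are scaled by the authors to a common total per library. Trim Galore 0.4.5, STAR 2.6.1c, RSEM 1.3.1, DESeq2 1.42.1, mm10 and GRCm38 are named in the submitters' processing notes, and the annotation release is not given in the sources used here.

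Of 55471 gene identifiers 55230 (99.6%) matched GENCODE M21. Expected counts were rounded, filtered with filterByExpr, scaled by TMM and fitted over all 8 libraries with edgeR 4.0.16 (R 4.3.3), with the quasi-likelihood test for G77S minus WT. Adjusted p-values throughout are Benjamini-Hochberg over all 13953 genes, and a gene was called below 0.05. The SE is the log2 fold change divided by the square root of its F. Genes with 0 counts in a group were bounded against 3 counts over the group, and ratios on 1 to 3 counts have 95% intervals that cover counting error only. Alternatives used RLE scaling, other filters, only the groups compared, a replicate block, DESeq2 1.42.0, limma 3.58.1 on log2(TPM + 1), a length offset, the libraries with Y-linked RNA, and leaving out each library. Steps were tested on simulated data.

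Named genes were Isca2, Adh1, Fabp3 and Pou5f1. To these were added, in each direction, the 15 most abundant and the 12 most changed called genes with at least 10 CPM and no overlap. Up to 5 called members of each list followed (2 abundant ones where none was called), and lineage and methylation regulators. Members and lists were chosen with earlier results of these data known.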

Additional observations from a re-analysis of the deposited data

How the results depend on the processing

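Against 182 higher and 291 lower genes, the counts were 598 and 738 without a filter, 706 and 817 with DESeq2, 1178 higher with limma on log2(TPM + 1), 325 higher with a filter of 5 CPM in 2 libraries, 326 higher with only the groups compared, and 101 higher in the libraries with Y-linked RNA. Leaving out single libraries gave 31 to 263 higher and 51 to 375 lower genes. For G77S against KO (246 and 339) the counts were 619 and 792 without a filter, 391 higher with the stricter filter, and 489 and 520 with only the groups compared. With a replicate block they were 154 and 257 against WT and 251 and 349 against KO. Same-numbered WT and G77S libraries deviated from their group means together by r = 0.045, -0.021 and 0.023 over all genes. Such values cannot tell whether these libraries share a litter or batch, so any pairing is unknown. Of 150 called genes tabulated, 39 kept their call in every alternative that tested them, and none reversed. Without G77S replicate 2, 42 of the 150 were called, and 133 without WT replicate 1, 119 with the block, 126 on log2(TPM + 1), 143 with the length offset, and 92 once both replicate 1 libraries were omitted. With 3 libraries a group and shorter fragments in every G77S library, single-library dependence limits most calls.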

Other observations

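All genes in the following sentences were chosen after their values were seen. Several genes of the actin cytoskeleton fell in G77S. Arpc2, a subunit of the Arp2/3 complex that nucleates branched actin, stood at 3377, 3520 and 3305 CPM in WT and at 931, 1130 and 1397 CPM in G77S (a fall of 1.56, SE 0.19, adjusted p = 0.00337). Of the 9 genes of that complex, 3 fell, none rose, all 9 values were negative and the median was -0.68. Over all genes 2.09% fell and the median was 0.03. Apart from Arpc2 the calls were those of Arpc5, lost without any G77S library (adjusted p between 0.0875 and 0.111), and Actr2, lost without each library except WT replicate 1 (between 0.0805 and 0.161). Lcp1, an actin-bundling plastin, stood at 863, 618 and 605 CPM in WT and at 152, 151 and 191 CPM in G77S (-2.08, SE 0.27, adjusted p = 0.0039). Msn, the membrane linker moesin, is X-linked and stood at 174, 186 and 230 CPM in WT and at 43.2, 66.4 and 60.5 CPM in G77S (-1.79, SE 0.24, adjusted p = 0.00495). For Arpc2, Lcp1 and Msn the groups did not overlap. The part of the shorter fragments in these values was not tested.

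Entpd1, the ectonucleotidase CD39 that breaks down extracellular nucleotides, stood at 284, 151 and 259 CPM in WT and at 21.3, 12.6 and 7.64 CPM in G77S (-4.06, SE 0.49, adjusted p = 0.00337). Enpp1, a pyrophosphatase, stood at 80.2, 87.1 and 140 CPM in WT and at 3.08, 7.28 and 10.5 CPM in G77S (-3.88, SE 0.44, adjusted p = 0.00332). Both kept their calls in every alternative setting. The unnamed-function gene BC051665 stood at 3050, 6387 and 11003 CPM in WT and at 10.5, 2.18 and 15.8 CPM in G77S (-9.5, SE 0.83, adjusted p = 0.00114). Gja1, the gap junction protein connexin 43, went up, from 44.3, 97.5 and 73.2 CPM in WT to 256, 299 and 279 CPM in G77S (1.96, SE 0.29, adjusted p = 0.00725). Every G77S library was above every WT library. Fhl1, an X-linked LIM protein gene, stood at 6.41, 5.46 and 8.62 CPM in WT and had no count in G77S, which makes it at least 97-fold lower (adjusted p = 0.00515).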
